A study of Mus musculus with 12 samples.

Results

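Aldehyde and alcohol dehydrogenases oxidise the aldehydes and alcohols that reach the liver or arise in it, and 9 of their genes were followed here in sorted mouse hepatocytes: Aldh1a1, Aldh1a7, Aldh1b1, Aldh1l1, Aldh2, Aldh3a2, Adh1, Adh4 and Adh5. The genes were chosen by name, and their Ensembl identifiers were matched to mouse symbols in the deposited count table, which lists 54839 features. All 9 passed the filter on low counts, as did 17121 features in total. By general knowledge of liver zonation, Aldh1a1, Aldh1a7 and Aldh3a2 were taken as pericentral (zone 3, around the central vein) and Aldh1b1 as periportal (zone 1, around the portal vein). The other genes were given no zone.

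Alcohol dehydrogenases oxidise ethanol, retinol and other alcohols to aldehydes, and aldehyde dehydrogenases oxidise the aldehydes to acids, each step passing electrons to NAD or NADP. In ethanol metabolism the first step takes place in the cytosol and the second mainly in mitochondria, through ALDH2. The same families handle aldehydes released by lipid peroxidation, formaldehyde, retinal and a folate cofactor, and hepatocytes are one of their richest sources in the body.

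The hepatocytes came from male p16-Tom mice on a C57BL/6 background, heterozygous for p16-CreERT2 and for R26-CAG-LSL-tdTomato-WPRE. In these mice a tamoxifen-dependent Cre is driven by the p16Ink4a gene, so that cells expressing p16Ink4a during tamoxifen treatment turn on the red protein tdTomato and keep it. Mice of every group received tamoxifen, with either corn oil as vehicle or carbon tetrachloride (CCl4) in corn oil, a solvent that CYP2E1 converts to a radical and that injures pericentral hepatocytes. After collagenase perfusion, live tdTomato-positive (Tom+) and tdTomato-negative (Tom-) hepatocytes were sorted, which gave 4 groups of 3 libraries: Tom- oil, Tom+ oil, Tom- CCl4 and Tom+ CCl4. The age of the mice is not given in the sources used here, and the labels do not say whether the Tom+ and Tom- libraries of one replicate number came from one mouse, so that p-values measure only the spread between these libraries.

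Total counts ranged from 37568584 to 75331424 per library, and each of the 9 genes held at least 1610 reads in every library. The tdTomato feature went against the label in 2 oil libraries. In CPM (counts scaled to a common library size, by the TMM method) it stood at 1794 in Tom- oil replicate 1 and at 135 in Tom+ oil replicate 2, against 120 to 263 in the other Tom- libraries and 1225 to 1546 in the other Tom+ libraries. Labels were kept as deposited. Many, not all, of the log2 fold changes and zone list medians that use oil are also given without both libraries. Overlap counts, pair counts and TPM sums are given with all libraries only. The summed level of 9 hepatocyte markers was 142459 to 158947 CPM in Tom- CCl4 and 112525 to 128709 CPM in Tom+ CCl4, without overlap, against 108544 to 141288 in Tom- oil and 127408 to 139452 in Tom+ oil. Alb made up most of this sum, at means of 114685 CPM in Tom- CCl4 and 85612 CPM in Tom+ CCl4. The markers Alb, Trf and Cps1 are also in the zone 1 list used below. Between the fractions in CCl4, the fitted level of 2 of the 9 markers was higher in Tom+. By the thresholds given below, 0 of the 9 differed between these fractions, against 1.96% of all genes. The part of this sum in the values of the 9 dehydrogenase genes was not tested.

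Aldh1a1 (ENSMUSG00000053279; chr19:20492715-20643462, plus strand, mm10) and Aldh1a7 (ENSMUSG00000024747; chr19:20692953-20727562, minus strand) lie 49.5 kb apart and point towards each other. They are close copies: the coding sequences, each 1503 bases long in the GENCODE M21 transcripts, were identical at 91.6% of positions, with 100 bases as the longest identical run. Of the 50-base windows of the Aldh1a1 coding sequence, 10.4% were also present in Aldh1a7, so that a short read from such a stretch does not tell the genes apart. The most alike and the least alike coding exons are shown because they mark where reads could and could not be shared. Capitals mark the bases at which the genes differ. Coding exon 8 (Aldh1a1 at chr19:20629054-20629156, Aldh1a7 at chr19:20709398-20709500) had 1 difference in 103 bases.
Aldh1a1 coding exon 8: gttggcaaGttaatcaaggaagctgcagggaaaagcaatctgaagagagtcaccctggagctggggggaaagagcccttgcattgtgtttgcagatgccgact
Aldh1a7 coding exon 8: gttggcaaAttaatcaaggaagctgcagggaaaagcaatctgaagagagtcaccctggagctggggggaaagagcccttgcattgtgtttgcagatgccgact
Coding exon 12 (Aldh1a1 at chr19:20640064-20640138, Aldh1a7 at chr19:20696336-20696410) had 15 differences in 75 bases.
Aldh1a1 coding exon 12: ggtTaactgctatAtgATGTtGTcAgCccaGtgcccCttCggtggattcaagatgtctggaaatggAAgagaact
Aldh1a7 coding exon 12: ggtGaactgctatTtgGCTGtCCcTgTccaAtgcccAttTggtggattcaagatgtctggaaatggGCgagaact
A count that was not a whole number occurred in 1 of 12 libraries for Aldh1a1 and in 1 of 12 for Aldh1a7. How the counting program treated reads that fit both genes equally is not given in the sources used here.

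The likeness extended upstream of the start of transcription. In the RefSeq promoters (GRCm38.p6), the 100 bases before the second of the 2 Aldh1a1 starts (chr19:20601868-20601967, plus strand) and those before the Aldh1a7 start (chr19:20727557-20727656, minus strand) differed at 6 positions, in capitals.
Aldh1a1 upstream: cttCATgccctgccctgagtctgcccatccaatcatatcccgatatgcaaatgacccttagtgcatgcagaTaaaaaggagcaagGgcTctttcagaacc
Aldh1a7 upstream: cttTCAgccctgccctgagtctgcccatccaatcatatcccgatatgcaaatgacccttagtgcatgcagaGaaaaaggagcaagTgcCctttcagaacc
Over the whole 250 bases before the start, an alignment with gaps had 265 columns, of which 65.3% were identical. The upstream sequences of the other genes called in a CCl4 against oil comparison are shown for their base composition, with CG dinucleotides in capitals. Aldh1b1 (chr4:45798922-45799021, plus strand) held 3, Aldh3a2 (chr11:61267187-61267286, minus strand) held 9 and Adh4 (chr3:138415397-138415496, plus strand) held 1 in the 100 bases before the start. Over 250 bases Aldh3a2 held 18 and Adh4 held 1, with 6 as the median of all promoters.
Aldh1b1 upstream: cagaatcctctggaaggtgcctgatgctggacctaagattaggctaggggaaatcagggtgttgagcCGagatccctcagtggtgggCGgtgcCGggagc
Aldh3a2 upstream: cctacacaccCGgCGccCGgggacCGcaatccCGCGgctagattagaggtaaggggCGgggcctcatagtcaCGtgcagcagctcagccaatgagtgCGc
Adh4 upstream: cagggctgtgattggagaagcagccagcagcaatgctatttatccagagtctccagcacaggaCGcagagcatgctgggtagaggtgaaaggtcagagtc
Of the 9 genes, 8 were matched to a RefSeq promoter (10 starts), and Aldh2 was not. These windows of 300 bases were searched on both strands for 4 motifs: ATCAAAG (bound by TCF/LEF factors), TGACNNNGC (the antioxidant response element), CAAAGTCCA (bound by HNF4A) and TATAAA (the TATA box). TATAAA was found at 1 start of Aldh1a7 and 1 of the 2 starts of Adh5, and it occurs in 13.6% of all 32851 promoters. The matches lay far from the start, at position -244 for Aldh1a7 and -207 for Adh5. The other motifs were in none of the 10 windows and are in 3.73%, 12.4% and 0.475% of all promoters, in the order above.

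Aldh3a2 (ENSMUSG00000010025) lies at chr11:61223417-61267464 on the minus strand, Aldh1b1 (ENSMUSG00000035561) at chr4:45799022-45804604 on the plus strand, Aldh2 (ENSMUSG00000029455) at chr5:121566027-121593824 on the minus strand and Aldh1l1 (ENSMUSG00000030088) at chr6:90486427-90600203 on the plus strand, each annotated as protein-coding (mm10).

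The levels of the genes, per length, were compared in TPM (counts per exon length, scaled to a common total), computed from the rounded counts and deposited exon lengths. Adh1, the class I enzyme that oxidises ethanol and retinol, was the highest at 1592 ± 332 TPM (SD over the 12 libraries). Aldh2, the mitochondrial acetaldehyde dehydrogenase, followed at 1085 ± 191 TPM and Aldh1l1, the cytosolic 10-formyltetrahydrofolate dehydrogenase, at 694 ± 158 TPM. Aldh1a1, which oxidises retinal and lipid aldehydes in the cytosol, stood at 343 ± 91.3 TPM and Aldh1a7 at 253 ± 39.1 TPM. Below them lay Aldh3a2 (fatty aldehyde dehydrogenase of the endoplasmic reticulum) at 145 ± 60.4 TPM, Adh4 (class II alcohol dehydrogenase) at 128 ± 54.9 TPM, Adh5 (class III, which oxidises glutathione-bound formaldehyde) at 113 ± 18.4 TPM and Aldh1b1 (a mitochondrial aldehyde dehydrogenase) at 75.4 ± 25.9 TPM.

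**Figure D1:**
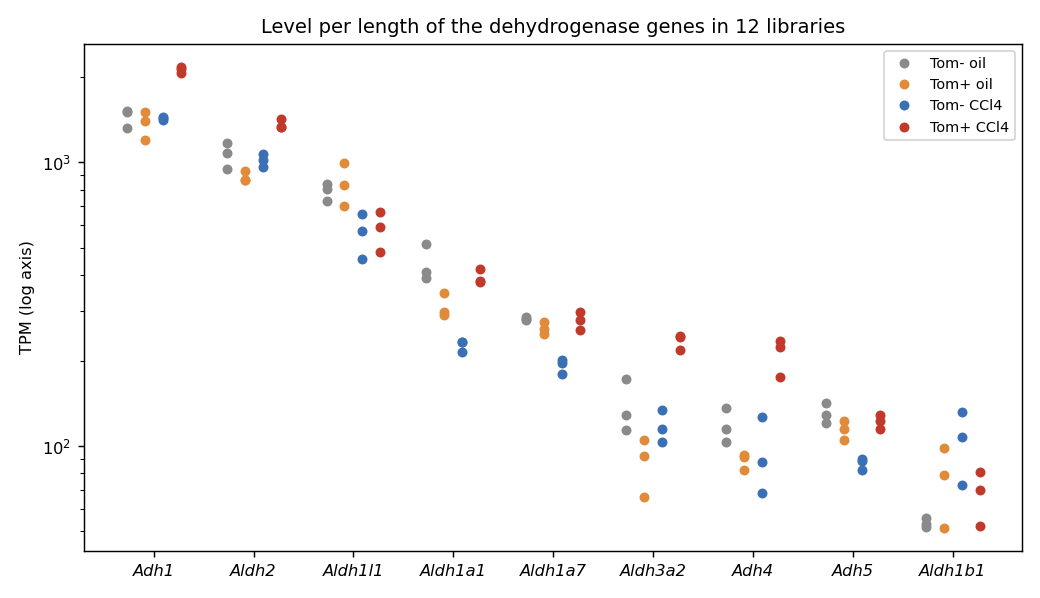
Level of each dehydrogenase gene in TPM on a log axis, with 1 point per library coloured by group and genes ordered by their mean. Adh1 was above Aldh2 in all 12 libraries, and the points of Aldh3a2, Adh4, Adh5 and Aldh1b1 overlap.

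Adh1 was above Aldh2, Aldh1l1 above Aldh1a1, Aldh1a1 above Aldh1a7 and Aldh1a7 above Aldh3a2 in 12 of 12 libraries, and Aldh2 was above Aldh1l1 in 11 of 12. The 4 lowest genes were not separated from each other beyond the spread. Aldh3a2 was above Adh4 in 8 of 12 libraries, Adh4 above Adh5 in 5 of 12 and Adh5 above Aldh1b1 in 10 of 12. The 9 genes together made up 4469 ± 292 TPM in Tom- oil, 4036 ± 328 in Tom+ oil, 3832 ± 111 in Tom- CCl4 and 5373 ± 125 in Tom+ CCl4 (mean ± SD, n = 3). The Tom+ CCl4 libraries, at 5259 to 5507 TPM, all lay above the other 9 libraries. TPM carries no TMM scaling, and the step from CPM to TPM differed between libraries. Adh1 was at 1417 CPM and 1524 TPM in Tom- oil replicate 2, and at 1734 CPM and 2060 TPM in Tom+ CCl4 replicate 1. The separation of the sums holds for TPM only. In TMM-scaled CPM the 9 genes together were higher in Tom- oil replicate 2 than in Tom+ CCl4 replicate 1.

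All 12 libraries entered a single edgeR model with quasi-likelihood tests, and a gene was called where the Benjamini-Hochberg adjusted p over all genes tested was under 0.05 and the log2 fold change was beyond 0.75. The first question was which dehydrogenase genes differed between CCl4 and oil in each fraction. In Tom- hepatocytes Aldh1a1 fell and Aldh1b1 rose, which makes 2 of 9 genes against 7.92% of all genes. In Tom+ hepatocytes Aldh3a2 and Adh4 rose, again 2 of 9, against 5.24% of all genes. By the adjusted p alone, 4 of 9 genes passed in Tom- (Aldh1a7 and Adh5 in addition, both lower) against 16.1% of all genes. The same count in Tom+ was 5 of 9 (Aldh2 and Adh1, higher, and Aldh1l1, lower, in addition) against 9.47%. The CPM of the CCl4 and oil libraries did not overlap for 5 of 9 genes in Tom- (36.0% of all genes) and for 5 of 9 in Tom+ (29.3%).

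**Figure D2:**
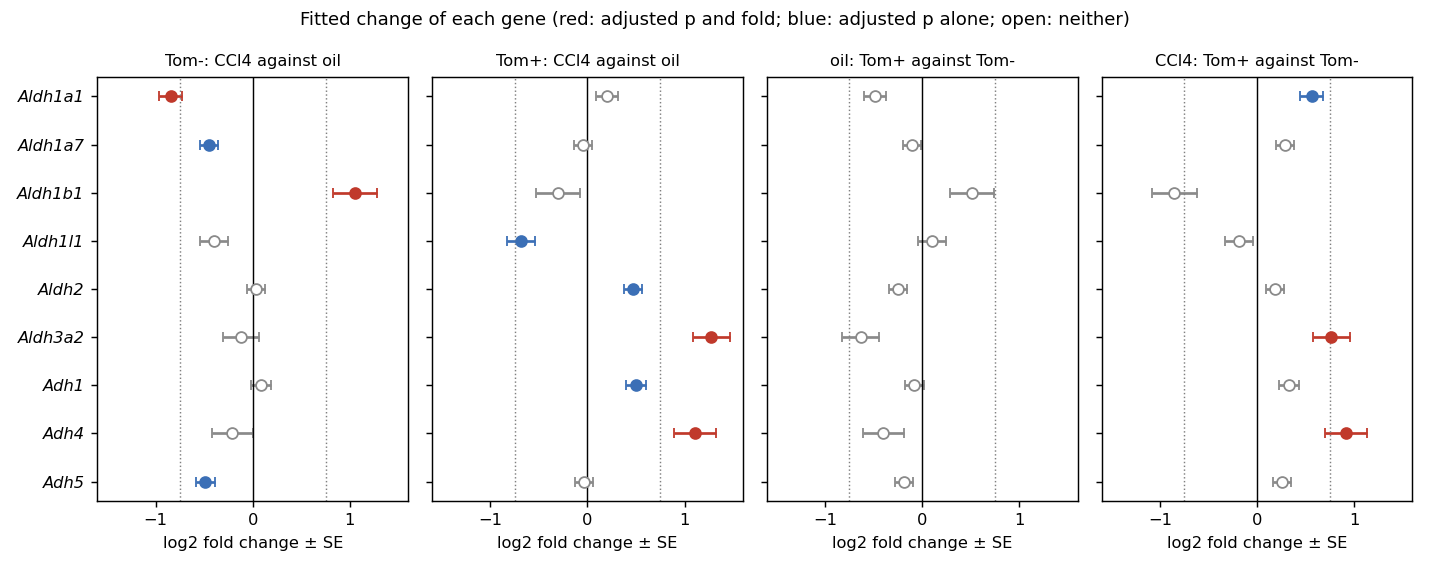
Fitted log2 fold change (point) and its SE (bar) of the 9 genes in 4 comparisons; dotted lines mark a log2 fold change of 0.75 in either direction. Red points passed the adjusted p and the fold, blue points the adjusted p alone and open points neither.

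Aldh1a1 fell after CCl4 in the Tom- fraction. It stood at 854, 1062 and 838 CPM in Tom- oil and at 472, 515 and 545 CPM in Tom- CCl4, so that every CCl4 library was below every oil library. In the Tom+ fraction the values were 590, 734 and 642 CPM in oil and 707, 789 and 765 CPM in CCl4, which overlap. The log2 fold change for CCl4 against oil was -0.85 ± 0.12 (SE; adjusted p = 0.000671, edgeR) in Tom- and 0.20 ± 0.12 (adjusted p = 0.311) in Tom+. Without both oil libraries named above, the Tom- change was -0.89 (adjusted p = 0.00224). Tom- oil replicate 2 was the highest of the 12 libraries, and without it the change was -0.73 with an adjusted p of 0.00353, short of the fold threshold.

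Its copy Aldh1a7 was not called. It ranged from 240 to 255 CPM in Tom- oil and from 165 to 197 CPM in Tom- CCl4, a log2 fold change of -0.45 ± 0.09 that passed the adjusted p alone (0.00603). In Tom+ it ranged from 220 to 234 CPM in oil and from 200 to 233 CPM in CCl4 (log2 fold change -0.05 ± 0.09, adjusted p = 0.795). The log2 fold changes were -0.42 (adjusted p = 0.0272) in Tom- and -0.07 in Tom+ without both oil libraries named above. The ratio of Aldh1a1 to Aldh1a7 in TPM was 1.40 to 1.81 in Tom- oil and 1.16 to 1.20 in Tom- CCl4, without overlap. In Tom+ it was 1.06 to 1.40 in oil and 1.38 to 1.48 in CCl4, with an overlap.

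**Figure D3:**
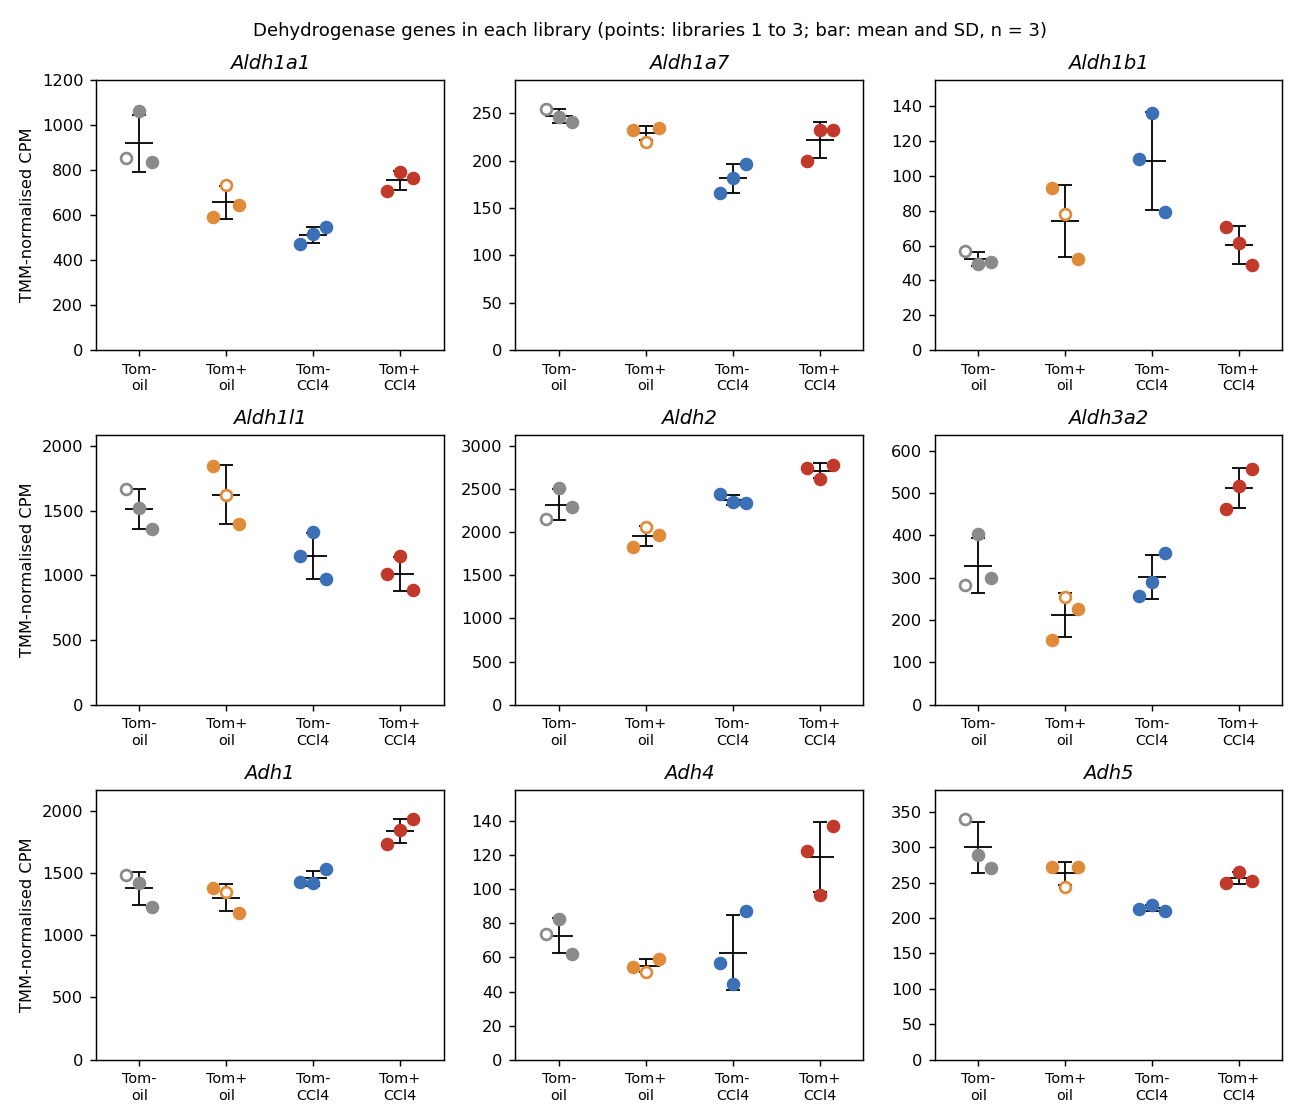
TMM-scaled CPM of the 9 genes in the 4 groups, with 1 point per library (replicates 1 to 3 from left to right) and bars for the mean and SD (n = 3). Open points are the 2 oil libraries whose tdTomato level went against the label; Aldh1a1 is lowest in Tom- CCl4, and Aldh3a2 and Adh4 are highest in Tom+ CCl4.

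Aldh1b1 and Aldh2 encode mitochondrial enzymes. Aldh1b1, the periportal member, stood at 56.7, 49.6 and 50.5 CPM in Tom- oil and at 110, 136 and 79.5 CPM in Tom- CCl4, a rise in every library. In Tom+ it stood at 92.9, 78.0 and 52.1 CPM in oil and at 70.4, 61.4 and 48.7 CPM in CCl4, which overlap. The log2 fold change was 1.05 ± 0.23 (adjusted p = 0.0113) in Tom- and -0.31 ± 0.23 (adjusted p = 0.456) in Tom+. The Tom- call was lost without both oil libraries named above, with a log2 fold change of 1.12 and an adjusted p of 0.0507. Aldh2 was between 2147 and 2506 CPM in Tom- oil and between 2339 and 2442 CPM in Tom- CCl4 (log2 fold change 0.04 ± 0.09, adjusted p = 0.820). It was between 1828 and 2063 CPM in Tom+ oil and between 2608 and 2770 CPM in Tom+ CCl4, where the log2 fold change of 0.47 ± 0.09 passed the adjusted p alone (0.00697). These values of Aldh2 were -0.01 in Tom- and 0.52 (adjusted p = 0.0143) in Tom+ without both oil libraries. Aldh1b1 amounted to 4.41 to 5.89% of Aldh2 in TPM in Tom- oil and to 7.58 to 13.0% in Tom- CCl4.

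Aldh3a2, which clears fatty aldehydes, rose after CCl4 in the Tom+ fraction. It stood at 153, 254 and 227 CPM in Tom+ oil and at 463, 517 and 557 CPM in Tom+ CCl4, and the Tom+ CCl4 libraries were above the other 9. In Tom- it stood at 282, 402 and 300 CPM in oil and at 258, 290 and 358 CPM in CCl4, which overlap. The log2 fold change was 1.28 ± 0.19 (adjusted p = 0.00154) in Tom+ and -0.12 ± 0.19 (adjusted p = 0.696) in Tom-. The Tom+ rise was called under each of the 15 alternatives tried, at log2 fold changes of 1.09 to 1.44 and adjusted p-values up to 0.00829, and it was 1.44 (adjusted p = 0.00283) without both oil libraries named above.

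The alcohol dehydrogenase genes lie in a cluster on chromosome 3, with Adh1 (ENSMUSG00000074207; chr3:138260991-138290698), Adh4 (ENSMUSG00000037797; chr3:138415466-138430892) and Adh5 (ENSMUSG00000028138; chr3:138443093-138455499) in this order on the plus strand. Their coding sequences were 61.7 to 65.3% identical in pairs and shared no 50-base window. Adh4 rose in Tom+. It stood at 54.4, 51.6 and 59.3 CPM in Tom+ oil and at 122, 96.8 and 137 CPM in Tom+ CCl4, each CCl4 library above every other library of the study. In Tom- it stood at 73.7, 82.3 and 61.9 CPM in oil and at 56.8, 44.5 and 87.1 CPM in CCl4, which overlap. The log2 fold change was 1.11 ± 0.21 (adjusted p = 0.00847) in Tom+ and -0.21 ± 0.21 (adjusted p = 0.535) in Tom-. The Tom+ call was lost without both oil libraries named above, with a log2 fold change of 1.07 and an adjusted p of 0.0595.

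Adh1 ranged from 1176 to 1380 CPM in Tom+ oil and from 1734 to 1930 CPM in Tom+ CCl4, and its log2 fold change of 0.50 ± 0.10 passed the adjusted p alone (0.00878). In Tom- it ranged from 1224 to 1483 CPM in oil and from 1417 to 1527 CPM in CCl4 (log2 fold change 0.08 ± 0.10, adjusted p = 0.602). Adh5 passed the adjusted p in the other fraction. It ranged from 271 to 340 CPM in Tom- oil and from 210 to 219 CPM in Tom- CCl4, a log2 fold change of -0.49 ± 0.09 that passed the adjusted p alone (0.00473), and in Tom+ its log2 fold change was -0.04 ± 0.09 (adjusted p = 0.843). With both oil libraries left out, Adh1 was at 0.53 (adjusted p = 0.0240) in Tom+ and 0.15 in Tom-, and Adh5 at -0.38 (adjusted p = 0.0186) in Tom- and -0.08 in Tom+. Adh4, which lies 12.2 kb from Adh5 and 125 kb from Adh1, was 5.90 to 7.76% of Adh1 in TPM in Tom+ oil and 8.09 to 10.95% in Tom+ CCl4.

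Aldh1l1, which removes formyl groups from folate, had negative log2 fold changes in both fractions. It ranged from 1360 to 1670 CPM in Tom- oil and from 976 to 1332 CPM in Tom- CCl4 (log2 fold change -0.40 ± 0.14, adjusted p = 0.0748). In Tom+ it ranged from 1396 to 1848 CPM in oil and from 884 to 1147 CPM in CCl4, and the log2 fold change of -0.68 ± 0.14 passed the adjusted p alone (0.0101). Leaving out both oil libraries named above gave -0.32 (adjusted p = 0.262) in Tom- and -0.67 (adjusted p = 0.0398) in Tom+. Counts summed over the Tom+ and Tom- libraries of one treatment and number do not depend on which library of that number was Tom+ or Tom-. They do depend on the numbers, and the oil libraries named above, Tom- replicate 1 and Tom+ replicate 2, have different numbers. In these sums 0 of 9 genes were called against 4.78% of all genes. By the adjusted p alone 2 of 9 passed against 8.18%, namely Aldh1l1 at a log2 fold change of -0.57 ± 0.13 (adjusted p = 0.0372) and Adh4 at 0.60 ± 0.14 (adjusted p = 0.0444). At an unadjusted p under 0.05, 4651 of 17743 genes passed in this comparison.

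Tom+ and Tom- hepatocytes were then compared within each treatment. In CCl4, Aldh3a2 (log2 fold change 0.76 ± 0.19, adjusted p = 0.0347) and Adh4 (0.92 ± 0.21, adjusted p = 0.0314) were higher in Tom+, 2 of 9 genes against 1.96% of all genes. Aldh1a1 was also higher, at 0.56 ± 0.12 by the adjusted p alone (0.0164), which makes 3 of 9 against 5.79%. Aldh1b1 was lower in Tom+ in 3 of 3 pairs of one number, at -0.85 ± 0.23 with an adjusted p of 0.0530. The CPM of Tom+ and Tom- did not overlap for 8 of 9 genes, Aldh1l1 being the exception, against 28.7% of all genes. The calls of Aldh3a2 and Adh4 did not hold when most single CCl4 libraries were left out. Leaving out any 1 of Tom- CCl4 replicates 1 and 2 or Tom+ CCl4 replicates 1, 2 and 3 ended both. Over the 6 libraries left out in turn, adjusted p-values ran from 0.0324 to 0.140 for Aldh3a2 and from 0.00472 to 0.0995 for Adh4, with log2 fold changes of 0.67 to 0.90 and of 0.72 to 1.23.

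Libraries of one number deviated together from their group means, so that the numbers were taken to pair the fractions. With the number as a block within treatment, 3 of 9 genes were called in CCl4 against 3.98% of all genes: Aldh3a2 at 0.77 (adjusted p = 8.94e-05), Adh4 at 0.96 (adjusted p = 0.000312) and, in addition, Aldh1b1 at -0.83 (adjusted p = 0.00325).

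In oil, 0 of 9 genes were called between Tom+ and Tom-, as was 0% of all genes (0 of 17121 in edgeR, with 1198 at an unadjusted p under 0.05). DESeq2 called 19 genes, 0 of the 9 among them. The differences of the 9 genes ran from -0.63 for Aldh3a2 (SE 0.19, adjusted p = 0.528) to 0.51 for Aldh1b1 (SE 0.23, adjusted p = 0.707). Aldh1a1 was at -0.49 ± 0.12 (adjusted p = 0.441). The CPM of Tom+ and Tom- did not overlap for 5 of 9 genes in oil, against 11.7% of all genes. With the replicate block, again 0 of 9 were called against 0.234%, although the block left Aldh1a1 (-0.48, adjusted p = 0.00337) and Aldh3a2 (-0.65, adjusted p = 0.00288) short of the fold threshold only. Without both oil libraries whose reporter went against the label, 0 of 9 were called as well, and the log2 differences were -0.64 for Aldh1a1 (adjusted p = 0.336), -0.90 for Aldh3a2 (adjusted p = 0.419), 0.52 for Aldh1b1 and -0.36 for Adh4. For the others they were -0.07 for Aldh1a7, 0.16 for Aldh1l1, -0.35 for Aldh2, -0.06 for Adh1 and -0.05 for Adh5.

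The fitted fraction differences of the 9 genes had opposite signs in oil and in CCl4, although 0 of the 9 oil differences were called. Of the 9 genes, 8 differed one way in 3 of 3 pairs in oil and the other way in 3 of 3 pairs in CCl4, against 11.8% of all genes. These pairs follow the labels. By tdTomato level, only oil pair 3 set a low Tom- library (143 CPM) against a high Tom+ library (1225 CPM). Both libraries were high in oil pair 1 (1794 and 1546 CPM) and both were low in oil pair 2 (157 and 135 CPM). Aldh1a1, Aldh1a7, Aldh2, Aldh3a2, Adh1 and Adh4 were lower in Tom+ in the oil pairs and higher in Tom+ in the CCl4 pairs. Aldh1b1 and Aldh1l1 had the opposite order, and Adh5 was higher in Tom+ in 3 of 3 CCl4 pairs and in 1 of 3 oil pairs. The smallest of these differences lie within the spread of the libraries: with single libraries left out in turn, the oil difference of Aldh1l1 ran from -0.01 to 0.20. The oil differences of Aldh1a7 (-0.11 ± 0.09), Aldh1l1 (0.10 ± 0.14) and Adh1 (-0.08 ± 0.10) were close to or below their SE.

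**Figure D4:**
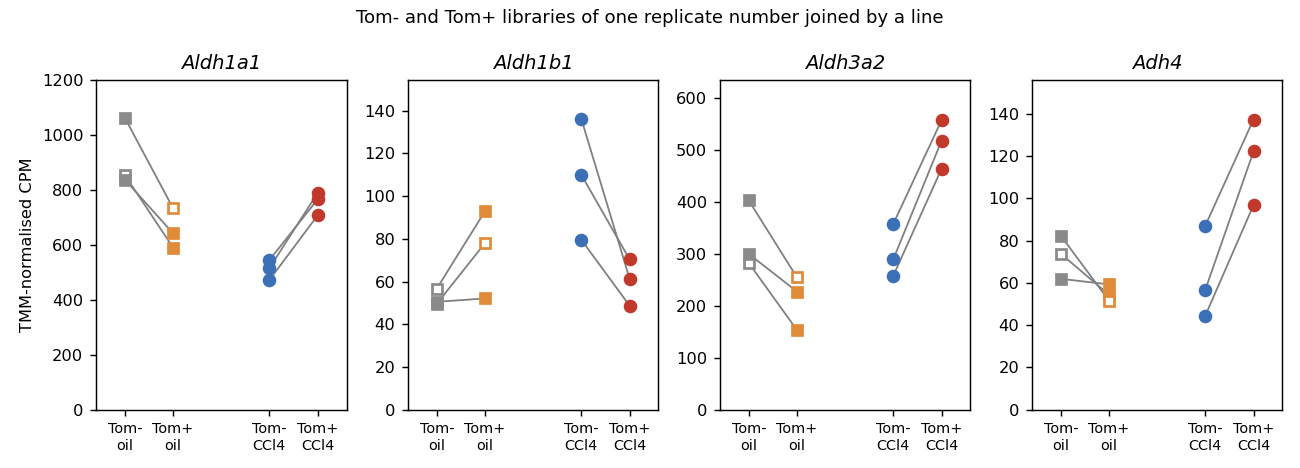
CPM of the 4 genes called in a CCl4 against oil comparison, with Tom- and Tom+ libraries of one replicate number joined by a line (squares oil, circles CCl4, open squares the 2 oil libraries whose tdTomato level went against the label). The lines of Aldh1a1, Aldh3a2 and Adh4 go down in oil and up in CCl4, and those of Aldh1b1 go up in oil and down in CCl4. Among the oil lines, only that of replicate 3 joins a Tom- library low in tdTomato to a Tom+ library high in it.

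The difference between the fraction differences was tested as an interaction. It was called for 2 of 9 genes against 1.17% of all genes, namely Aldh1a1 at 1.05 ± 0.16 (adjusted p = 0.0107) and Aldh3a2 at 1.40 ± 0.27 (adjusted p = 0.0304). Aldh1a1 was called under each of the 20 alternatives, with adjusted p-values up to 0.0439. Aldh3a2 lost the call in 5 of them, each of which left out 1 library (Tom- oil replicate 2, Tom- CCl4 replicate 1 or 2, or Tom+ CCl4 replicate 2 or 3), with adjusted p-values up to 0.0982. Adh4 at 1.32 ± 0.30 (adjusted p = 0.0545) and Aldh1b1 at -1.36 ± 0.32 (adjusted p = 0.0619) did not pass. With the replicate block they passed as well, Adh4 at 1.35 (adjusted p = 0.000529) and Aldh1b1 at -1.31 (adjusted p = 0.00315), so that 4 of 9 were called against 5.48% of all genes. Without both oil libraries whose reporter went against the label, the interaction was 1.19 for Aldh1a1 (adjusted p = 0.0217) and 1.65 for Aldh3a2 (adjusted p = 0.0270). For Adh4 it was 1.27 (adjusted p = 0.183) and for Aldh1b1 -1.38 (adjusted p = 0.181).

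The zone lists gave the surroundings of these values. Of 30 zone 3 genes, 14 rose and 1 fell in Tom+ after CCl4, with a median log2 fold change of 1.20, beside a median of 0.00 over all genes. In Tom-, 0 rose and 2 fell, with a median of 0.13 that was -0.07 without Tom- CCl4 replicate 3. Of 30 zone 1 genes, 1 rose and 14 fell in Tom+ (median -0.72), and 1 rose and 0 fell in Tom- (median -0.09). Over all genes, 5.24% were called in Tom+ and 7.92% in Tom-, both directions together. Without both oil libraries whose reporter went against the label, the Tom+ medians were 1.57 for zone 3 and -0.80 for zone 1, and the Tom- medians 0.05 and -0.06. Glutamine synthetase (Glul), the marker of the cells next to the central vein, stood at 80.0 ± 73.9 CPM in Tom+ oil and at 358 ± 124 CPM in Tom+ CCl4 (log2 fold change 2.16, adjusted p = 0.161). Cyp2e1 stood at 1051 ± 537 and 2314 ± 262 CPM (log2 fold change 1.14, adjusted p = 0.112). The serine dehydratase Sds, at 370 ± 48.7 and 96.8 ± 26.2 CPM (log2 fold change -1.93, adjusted p = 0.000200), and the histidine ammonia-lyase Hal, at 705 ± 161 and 204 ± 73.2 CPM (log2 fold change -1.79, adjusted p = 0.00352), fell.

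Between the fractions, the zone 3 list had a median difference of -0.47 in oil and 0.68 in CCl4, and the zone 1 list of 0.07 in oil and -0.56 in CCl4. The oil median of zone 3 depended on single libraries: it was -0.29 without Tom- oil replicate 2, -0.33 without Tom+ oil replicate 1, -0.78 without Tom+ oil replicate 2 and -0.90 without both oil libraries whose reporter went against the label. The oil median of zone 1 was 0.18 without both, 0.15 without Tom- oil replicate 1, 0.12 without Tom+ oil replicate 2 and 0.03 without Tom- oil replicate 2. The pericentral members Aldh1a1, Aldh1a7 and Aldh3a2 had the sign of the zone 3 medians in both treatments, and the periportal Aldh1b1 had the sign of the zone 1 medians. Among the genes given no zone, Aldh2, Adh1, Adh4 and Adh5 had the signs of zone 3 and Aldh1l1 those of zone 1. For CCl4 against oil in Tom- the signs of the members with a zone were opposite to their lists. Aldh1a1 was at -0.85, Aldh1a7 at -0.45 and Aldh3a2 at -0.12, beside a zone 3 median of 0.13 (-0.07 without Tom- CCl4 replicate 3). Aldh1b1 was at 1.05, beside a zone 1 median of -0.09. In Tom+, Aldh1a7 was at -0.05 beside a zone 3 median of 1.20, while Aldh1a1, Aldh3a2 and Aldh1b1 had the sign of their list. The part of a shift in zone of the sorted cells in the dehydrogenase values was not tested.

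**Figure D5:**
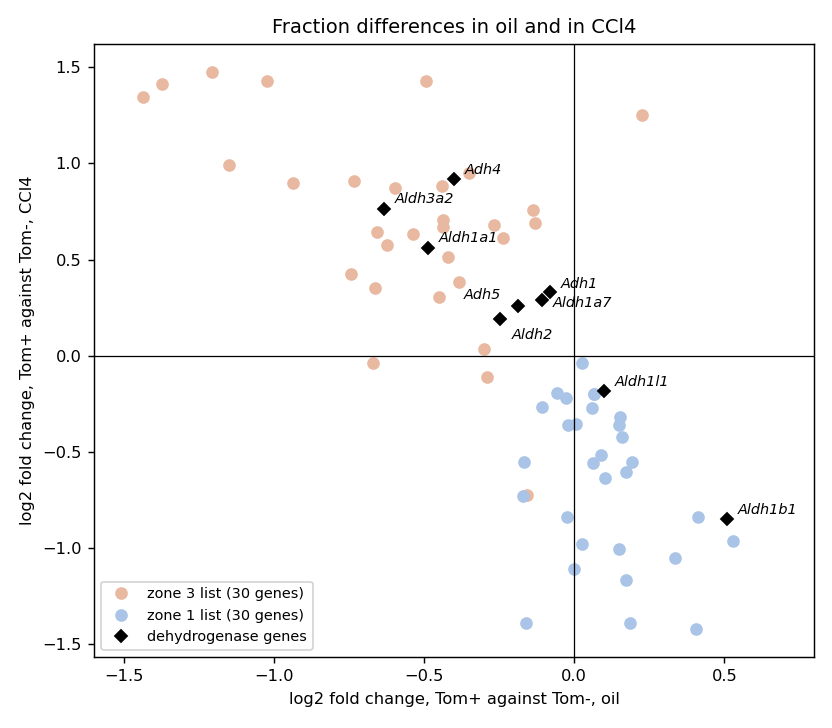
Log2 fold change of Tom+ against Tom- in oil (horizontal) and in CCl4 (vertical) for the 9 dehydrogenase genes (black diamonds) and the genes of the zone 3 and zone 1 lists (30 each, circles). Aldh1a1, Aldh1a7, Aldh2, Aldh3a2 and the Adh genes lie at upper left with most of zone 3, and Aldh1b1 and Aldh1l1 at lower right with most of zone 1.

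The other genes of aldehyde and alcohol metabolism were counted by list, and the counts stand beside 7.92% of all genes called in Tom- and 5.24% in Tom+ after CCl4. Of 15 further aldehyde dehydrogenases 12 were tested, and in Tom+ after CCl4 2 rose and 0 fell. Aldh1l2, the mitochondrial counterpart of Aldh1l1, was at 0.42 ± 0.18 CPM in Tom+ oil and at 5.26 ± 2.89 CPM in Tom+ CCl4 (log2 fold change 3.65 ± 0.53, adjusted p = 0.00123). The other was Aldh18a1, of proline synthesis (2.39 ± 0.68, adjusted p = 0.0424), at low means of 0.20 CPM in Tom+ oil and 1.06 CPM in Tom+ CCl4. In Tom-, Aldh3b1 rose (1.34 ± 0.37, adjusted p = 0.0272), from a level of 0.70 CPM. Of 4 further alcohol dehydrogenases 2 were tested and 0 were called in Tom- or Tom+. Of the 15 aldo-keto reductases tested, which reduce aldehydes to alcohols, 3 rose and 0 fell in Tom- and 1 rose and 0 fell in Tom+. Akr1c18 rose in both fractions (3.06 ± 0.53 in Tom-, adjusted p = 0.00278, and 3.46 ± 0.51 in Tom+, adjusted p = 0.00123) from means of 0.26 and 0.33 CPM. The others that rose in Tom- were Akr1b8 (1.31 ± 0.30, adjusted p = 0.0102) and Akr1b10 (1.86 ± 0.52, adjusted p = 0.0285), from means of 0.91 and 0.28 CPM.

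Among 8 tested partners in ethanol and formaldehyde metabolism, Aox3, an aldehyde oxidase, fell in Tom- (log2 fold change -0.85 ± 0.13, adjusted p = 0.00145) and differed in the interaction (1.11 ± 0.19, adjusted p = 0.0166), as Aldh1a1 did. Its relative Aox1 rose in Tom+ (1.35 ± 0.29, adjusted p = 0.0187). Of 20 tested genes of retinoid metabolism, 3 rose and 0 fell in Tom-, and 5 rose and 1 fell in Tom+. The genes that rose in Tom+ included the retinol dehydrogenase Rdh9 (3.77 ± 0.75, adjusted p = 0.0166), Lrat, which esterifies retinol (1.89 ± 0.36, adjusted p = 0.00543), the retinoic acid hydroxylase Cyp26a1 (1.73 ± 0.34, adjusted p = 0.0124) and Dhrs9 (1.23 ± 0.18, adjusted p = 0.00106), and Stra6l fell (-0.82 ± 0.21, adjusted p = 0.0273). Lrat and Dhrs9 also rose in Tom-, and Lrat is also one of the stellate cell markers described beside these lists. Of 19 tested folate genes, 0 were called in Tom- and 2 rose and 1 fell in Tom+, Aldh1l2 among those that rose. The one that fell was Ftcd, a periportal enzyme of histidine breakdown that passes a formimino group to folate (-1.27 ± 0.12, adjusted p = 4.42e-05), and the mitochondrial Mthfd2 rose (1.30 ± 0.37, adjusted p = 0.0416).

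Markers of other liver cells moved with treatment and fraction, and their counts stand beside 7.92% of all genes called in Tom- and 5.24% in Tom+ after CCl4 and 1.96% between the fractions in CCl4. The summed level of 10 endothelial markers was 389 to 424 CPM in Tom- CCl4, against 188 to 270 in Tom+ CCl4, 151 to 231 in Tom- oil and 169 to 283 in Tom+ oil, and 9 of 10 rose in Tom- after CCl4, while 6 of 10 were lower in Tom+ than in Tom- in CCl4. The 10 stellate cell markers summed to 71.4 to 90.5 CPM in Tom- CCl4 and 51.9 to 107 in Tom+ CCl4, against 7.52 to 23.7 in oil, with 7 markers called higher in Tom- and 5 in Tom+ after CCl4. Kupffer cell and macrophage markers summed to 69.8 to 208 CPM in CCl4 and 17.4 to 140 in oil, cholangiocyte markers to 19.4 to 32.7 and lymphocyte and neutrophil markers to 0.48 to 5.14. Of the 10 cholangiocyte markers, Tff2 had 0 reads in all 12 libraries, which allows a level of up to 0.0369 to 0.0829 CPM (3 reads), and the defining marker Krt19 reached 0.29 CPM at most. The part of these cells in the values of the 9 genes was not tested, and fewer hepatocytes in a library cannot be told apart from less of a transcript in each.

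The likeness of the patterns over the 12 libraries was described by correlation. In log2 CPM, Aldh3a2 had Pearson correlations of 0.92 with Aldh2 and 0.83 with Adh4, and Aldh1a1 of 0.82 with Aldh1a7 and -0.82 with Aldh1b1. Among 7754 other genes with a mean of at least 10 CPM, those most like Aldh1a1 were Fam107b (0.95), Aox3 (0.94) and Vwa8 (0.92). Those most like Aldh3a2 were the ribonuclease Ang (0.97), the glycerol phosphate dehydrogenase Gpd1 (0.95) and Rmdn2 (0.95). For Adh4 they included Pik3ap1 (0.94) and Mdfic (0.93), and for Aldh1b1 they were Stap2 (0.95), Ndst2 (0.92) and the splicing factor Srsf7 (0.92). These values describe 12 libraries that share groups, replicate numbers and scaling, and no test was made of them.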

How the data were processed

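RNA was measured by strand-specific poly(A) sequencing of 12 sorted hepatocyte libraries, 3 in each of 4 groups taken from the labels. The authors trimmed reads with fastp 0.23.2, aligned them to mm10 with HISAT2 2.1.0 and tested genes with DESeq2 1.42.1; the counting program, its strand setting and its annotation are not given in the sources used here. The deposited values are expected counts per gene, of which 30.4 to 32.9% of the non-zero values in a library have a fraction, with gene positions and exon lengths beside them. Counts were rounded to whole numbers, filtered with filterByExpr, scaled by TMM and tested with edgeR 4.0.16 (quasi-likelihood, robust) in R 4.3.3, with Benjamini-Hochberg adjustment over all genes tested. A call needs an adjusted p under 0.05 and a log2 fold change beyond 0.75. The scripts were tested on simulated data. TPM came from the rounded counts and deposited lengths.

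Of the 54839 features, 99.8% were matched to a symbol. Total counts were 37568584 to 75331424 per library, and a level of 0 allows up to 3 reads, which covers counting error only. Tom+ and Tom- libraries of one number correlated in their deviations from the group means at 0.354 to 0.723 over 7763 genes, over 0.1 in every pair, so the number was used as a block in an alternative fit. The alternatives were DESeq2 1.42.0, limma-voom (limma 3.58.1), other scalings and filters, no fold threshold, libraries left out and the block.

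The genes and lists were chosen with earlier results of these data known. Named were the 9 genes, the genes of other lists called with a mean of at least 1 CPM (at most 4 per list and comparison), Glul, Cyp2e1, Sds, Hal, tdTomato, and the 3 genes with a mean of at least 10 CPM most correlated with each gene called in a CCl4 against oil comparison. Aldh18a1, Akr1b10, Stra6l, Dhrs9 in Tom+, Krt19 and Tff2 were named after their values were seen. Some genes that the rule names are not reported here.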

Additional observations from a re-analysis of the deposited data

Results flagged for a closer look

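For Aldh1a1 and Aldh3a2 the difference between Tom+ and Tom- hepatocytes was not the same in CCl4 as in oil, by a test of the difference itself (the interaction of fraction and treatment in edgeR's quasi-likelihood test, adjusted over all genes). Aldh1a1 was 0.56 higher in Tom+ on the log2 scale in CCl4, its oil difference was -0.49, and the interaction was 1.05 (adjusted p = 0.0107). Aldh3a2 was 0.76 higher in Tom+ in CCl4, its oil difference was -0.63, and the interaction was 1.40 (adjusted p = 0.0304). Both genes were higher in Tom+ in 3 of 3 CCl4 pairs and in 0 of 3 oil pairs. By tdTomato level, only oil pair 3 set a low Tom- library against a high Tom+ library. The groups hold 3 libraries each, too few for a test of single outlying libraries.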

How the results depend on the processing

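Of 819 log2 fold changes of the 9 genes under alternatives, 778 kept their side of the thresholds, 23 lost a call, 18 gained one and 5 had the opposite sign, none of them a called value. With the adjusted p alone, 4 genes passed in Tom- CCl4 against oil (2761 of all genes), 5 in Tom+ (1622) and 2 in the summed fractions (1452). DESeq2 called 4 genes in the interaction, with 585 of all 17121 genes called against 201 in edgeR. With no filter on low counts, 0 were called between the fractions in CCl4, and 292 of all 27185 genes. Without both oil libraries whose reporter went against the label, 1 was called in Tom- (957 of all 17525 genes) and 1 in Tom+ (614). With only the 6 libraries compared, 1 was called between the fractions in CCl4 (343 of all 16277); the cause was not tested.

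With the replicate block, 4 genes were called in the interaction (938 of all genes) and 3 between the fractions in CCl4 (682). CCl4 and oil libraries of one number share only that number (correlations of 0.00443 to 0.305); with it as a block, 2 were called in Tom- (1694 of all genes) and 2 in Tom+ (1119).

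With single libraries left out, the number called ran from 1 to 2 in Tom- CCl4 against oil, 2 to 3 in Tom+, 0 to 3 between the fractions in CCl4, 1 to 4 in the interaction and 0 to 1 in the summed fractions, and it was 0 in oil throughout. Over all genes, these fits called 902 to 1361 in Tom- CCl4 against oil, 482 to 933 in Tom+, 77 to 291 between the fractions in CCl4, 42 to 253 in the interaction, 363 to 1017 in the summed fractions and 0 to 26 in oil. The zone 3 median in Tom- CCl4 against oil turned to -0.066 without Tom- CCl4 replicate 3 and ran from -0.066 to 0.36. The median log2 fold change of all genes lay within 0.0422 of 0 in every fit.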
